A study of Mus musculus with 6 samples.

Results

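The SLC25 family is the set of carrier proteins that move metabolites across the inner membrane of mitochondria. Its genes were taken by name, as every protein-coding gene of the deposited table whose symbol is Slc25a followed by a digit. This gave 47 of the 45706 genes in the table. Of these, 41 reached a mean value of 10 over the 6 hearts and were tested, and 6 lay below it.

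Each sample was the poly(A) RNA of a mouse embryonic heart on the C57BL6/J strain, sequenced from stranded, paired-end libraries. All 6 hearts carried loxP-flanked (flox/flox) alleles of both RBPMS and RBPMS2, which encode RNA-binding proteins. The 3 control hearts had no other allele named in the labels, and the 3 knockout hearts also carried aMyHC Cre, a recombinase under control of a cardiomyocyte promoter, that of alpha-myosin heavy chain. Cre was present in every knockout and named in no control, so transgene and deletion cannot be told apart, and cells without promoter activity keep both genes. The labels give no embryonic day.

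Solutes cross the inner mitochondrial membrane through specific carriers because the membrane itself is nearly impermeable to them. Most SLC25 proteins exchange one metabolite of the matrix for another of the cytosol. In heart muscle the ADP/ATP carriers and the phosphate carrier feed ATP synthase and export its product, while the malate-aspartate shuttle brings reducing equivalents of glycolysis into the matrix. Others serve the supply of coenzymes, nucleotides, amino acids, fatty acids and iron.

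Most carrier genes of the heart differed little between the groups. Slc25a35 and Slc25a34, which encode related carriers with no established substrate, rose in the knockouts. In all 3 of 41 carriers passed, 7.32%. Of all 15556 genes tested, 17.2% passed the same threshold, a Benjamini-Hochberg adjusted p of 0.05 in limma, with 8.61% higher and 8.56% lower in the knockouts. These are 1339 and 1331 genes, or 1569 and 1091 with values scaled to equal totals. The share of carriers called was therefore below that of all genes, but it depended on 1 heart: without control replicate 1 there were 8 carriers past the threshold, among 2317 genes. The carriers that supply ATP synthase, which made up most of the family's summed value, were not among those called.

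The hearts were compared by deposited values, which are reads of a gene after rescaling of each library and rounding. Totals were 18023633 to 18439201 per heart in the controls and 17861435 to 17898118 in the knockouts, with every knockout below every control. The estimated depth before scaling was 12959798 to 21334209 reads in the controls and 14759077 to 25833528 in the knockouts. Rbpms was at 3868 to 7656 in the controls and 852 to 1134 in the knockouts, and Rbpms2 at 1362 to 1998 and 879 to 1003, so the targeted genes went with the labels. Xist was high in 2 controls and 1 knockout, so embryo sex was not balanced between the groups. Heart muscle markers were abundant in every heart: their 7 genes summed to 554525 to 591478 in the controls and to 501025 to 535662 in the knockouts, and 1 of 7 fell. Markers of 4 other kinds of cell summed higher in every knockout than in any control: 17788 to 18020 against 20739 to 22864 for endothelium, 72958 to 85998 against 90698 to 121686 for fibroblasts, 2374 to 2910 against 2985 to 3291 for epicardium, and 1470 to 1579 against 2019 to 2725 for macrophages. Of these lists 4 of 7, 3 of 7, 0 of 6 and 4 of 7 genes rose, and no listed marker was at 0 in all hearts. The sum of red cell markers went the other way, at 38200 to 66413 against 30898 to 38017, with every knockout below every control. Limma called 0 of the 10 tested genes. Of these Hbb-y and Hba-x alone had log2 estimates above 0, at 0.68 and 0.63. The part of cell composition in the differences below was not tested, and in bulk hearts fewer cells of a type and less RNA per cell cannot be told apart.

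The start regions of 3 carrier genes are shown because they stand for the main contrast: Slc25a34 rose, Slc25a4 is the most abundant carrier gene and did not pass, and Slc25a5 is its close relative. Each window runs from 250 bases before to 50 bases after a RefSeq start on build GRCm38.p6, 5′ to 3′ on the gene's strand. Capitals mark matches, on either strand, to the motifs searched. Slc25a34 lies at chr4:141623785-141624084 on the minus strand, Slc25a4 at chr8:46211013-46211312 on the minus strand and Slc25a5 at chrX:36795347-36795646 on the plus strand.
Slc25a34: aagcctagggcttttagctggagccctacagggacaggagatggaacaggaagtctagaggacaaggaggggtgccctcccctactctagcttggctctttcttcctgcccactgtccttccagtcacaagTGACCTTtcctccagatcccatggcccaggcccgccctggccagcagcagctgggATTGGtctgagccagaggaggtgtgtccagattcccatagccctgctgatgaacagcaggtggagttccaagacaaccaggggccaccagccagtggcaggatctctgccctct
Slc25a4: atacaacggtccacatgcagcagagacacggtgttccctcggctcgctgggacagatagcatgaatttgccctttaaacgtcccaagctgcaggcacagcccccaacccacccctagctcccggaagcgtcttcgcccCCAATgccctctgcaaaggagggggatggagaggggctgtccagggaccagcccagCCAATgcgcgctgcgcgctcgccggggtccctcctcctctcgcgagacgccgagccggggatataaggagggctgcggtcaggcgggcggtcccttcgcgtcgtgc
Slc25a5: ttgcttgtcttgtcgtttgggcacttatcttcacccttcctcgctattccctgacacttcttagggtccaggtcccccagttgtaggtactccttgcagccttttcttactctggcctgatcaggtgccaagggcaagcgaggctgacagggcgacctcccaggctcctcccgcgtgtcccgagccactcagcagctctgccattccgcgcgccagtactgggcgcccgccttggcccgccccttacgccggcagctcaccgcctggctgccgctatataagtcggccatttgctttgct

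The motifs were the CCAAT box (CCAAT), the TATA box (TATAAA), the half-site of estrogen-related receptors (AAGGTCA), the E-box CACGTG, the core CGCATGCG of the NRF1 site, and the CArG box and MEF2 site by name. They do not overlap one another in these windows. The window of Slc25a34 held the receptor half-site at bases 132 to 138 and a CCAAT box at bases 187 to 191, both read on the opposite strand. That of Slc25a4 held CCAAT boxes at bases 139 to 143 and 195 to 199, and that of Slc25a5 held no match. The half-site is found in 4.72% of 32851 windows of the same length over all genes and the CCAAT box in 37.4%. RefSeq windows matched 32 of the 41 tested carriers, with 41 windows. Among them 21 windows held a CCAAT box, 8 an E-box (7.15% of all windows), 2, both of Slc25a23, a CArG box (1.63%), and 1, that of Slc25a34, the receptor half-site. Some carriers had more than 1 window. By gene, 18 of the 32 carriers held a CCAAT box, 7 an E-box and 1 a CArG box. The exact letters TATAAA, the NRF1 core and the MEF2 site were in 0 of the 41 windows, against 13.6%, 1.87% and 0.56% of all windows. Other forms of the TATA box were not searched, and the windows of Slc25a4 and Slc25a5 hold TATAAG. The Slc25a34 window had 1 CpG and a GC content of 59.0%, that of Slc25a4 had 25 and 65.7%, and that of Slc25a5 had 18 and 61.0%. These matches describe letters and not bound sites.

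Levels between genes were compared per kb of exon, using the GENCODE M21 exons of each gene. Slc25a4, the ADP/ATP carrier typical of muscle, stood highest in the controls at 21017 ± 1407 per kb, followed by Slc25a5, the ADP/ATP carrier of dividing and many other cells, at 10210 ± 438, and Slc25a3, the phosphate carrier, at 4406 ± 182 (SD, n = 3 each). Slc25a11, the 2-oxoglutarate/malate carrier of the malate-aspartate shuttle, was at 2722 ± 126 and Slc25a39, a mitochondrial glutathione carrier, at 1256 ± 180. In the order of control means, these 5 genes, at or above 1000 per kb, and Slc25a23 behind them at 536 ± 14.8, did not overlap with their neighbours. A further 18 carriers lay between 100 and 1000 per kb and 18 below 100. Over the whole order 27 of 40 neighbouring pairs overlapped in their control values, so that most places in the lower part are not separated by the spread between hearts. Slc25a34 (11.5 ± 0.94), Slc25a35 (11.3 ± 1.40) and Slc25a53 (7.83 ± 2.33) were at the low end.

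**Figure D1:**
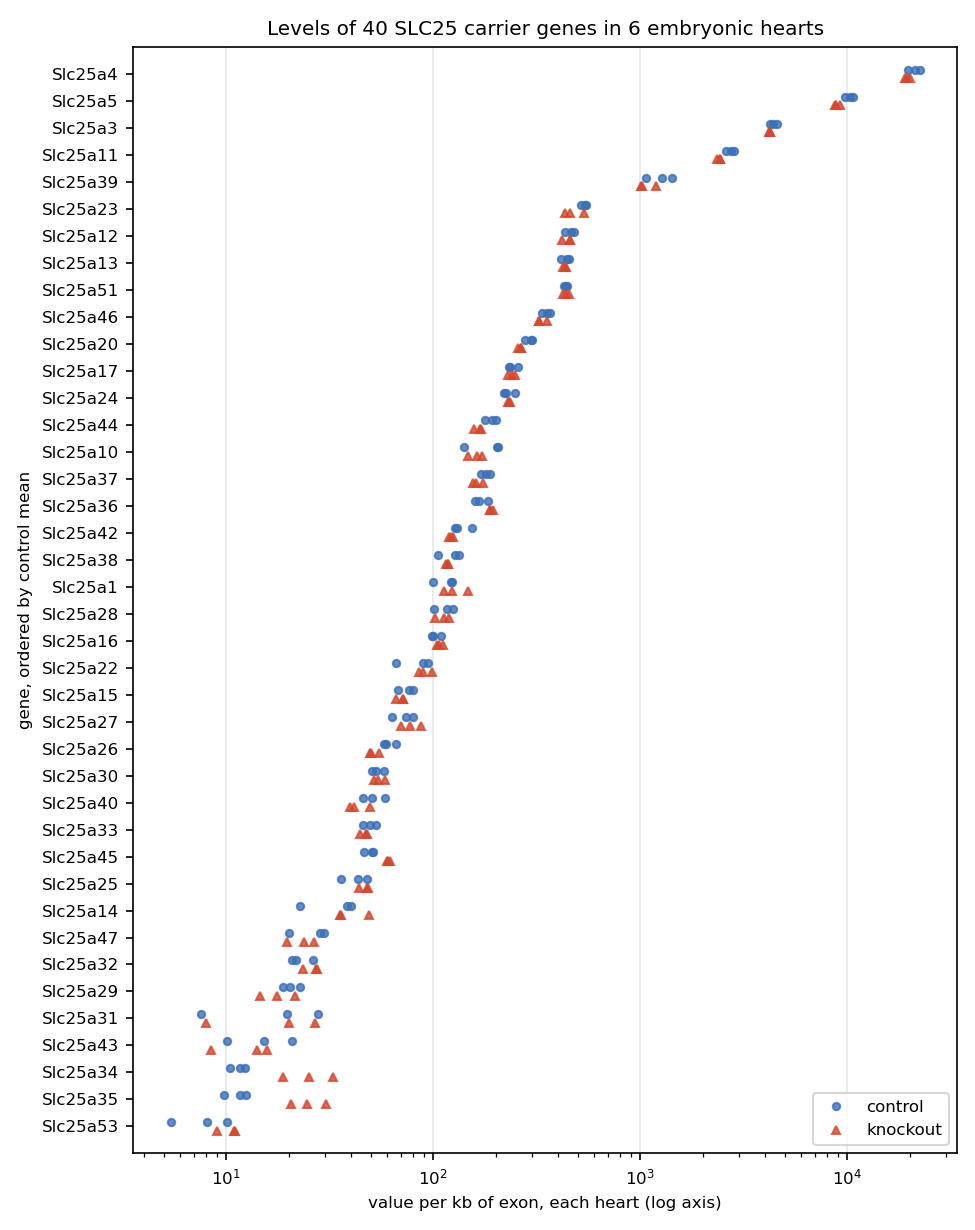
Value per kb of exon of 40 SLC25 carrier genes (rows, ordered by control mean) in each of 6 hearts, on a log axis, with circles for the 3 controls and triangles for the 3 knockouts. Slc25a4, Slc25a5 and Slc25a3 stand highest, and Slc25a34 and Slc25a35 are low in the controls, with their knockout points to the right.

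Summed over the 41 tested members, the family took 0.663%, 0.690% and 0.715% of all values among control hearts, against 0.653%, 0.664% and 0.651% among knockout hearts. The groups overlapped (exact two-sided permutation test over hearts, p = 0.2, where 0.1 is the smallest possible). Slc25a4, Slc25a3 and Slc25a5 together made up 71.5% to 72.4% of the family sum in the controls and 70.9% to 72.2% in the knockouts (exact permutation p = 0.7). Most of the family's value thus came from the genes of ADP, ATP and phosphate transport. Deposited values rather than values per length were summed.

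Slc25a35 (ENSMUSG00000018740; mm10 chromosome 11, 68968131 to 68974365, plus strand) was at 43, 46 and 36 among control hearts, in the order of replicates 1 to 3, against 76, 90 and 112 among knockout hearts. Every knockout lay above every control. The mean rose from 41.7 ± 5.13 to 92.7 ± 18.1 (SD, n = 3 each), 2.22 times, with a log2 fold change of 1.12 (SE 0.19, 95% interval 0.69 to 1.55, limma adjusted p = 0.00425). Fold changes are on the log2(value + 1) scale, which understates the change of low genes. Its exons overlap Rangrf on the opposite strand over 1151 bases, 31.3% of the exon length of Slc25a35 and 90.7% of that of Rangrf. Rangrf was at a mean of 0.7 in the controls and 1.7 in the knockouts. The sources used here do not say if counting was by strand, so reads of the shared part cannot be told apart, and the value of Slc25a35 is uncertain to that extent.

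Slc25a34 (ENSMUSG00000040740; chromosome 4, 141618824 to 141623821, minus strand), which is grouped with Slc25a35 beside the yeast oxaloacetate carrier, was at 33, 28 and 31 among control hearts, against 50, 88 and 67 among knockout hearts. Again the groups did not overlap, and knockout replicate 1 held the lowest knockout value of both genes. The mean rose from 30.7 ± 2.52 to 68.3 ± 19 (SD, n = 3 each), 2.23 times, with a log2 fold change of 1.10 (SE 0.23, 95% interval 0.59 to 1.61, limma adjusted p = 0.0102). No other annotated exon overlaps those of Slc25a34. Both genes stayed past the threshold under each of 15 other settings, with log2 fold changes of 0.98 to 1.26 for Slc25a35 and 0.90 to 1.30 for Slc25a34. Their highest adjusted p under those settings was 0.0200 and 0.0462. Both genes were low, so counting error is part of their spread.

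**Figure D2:**
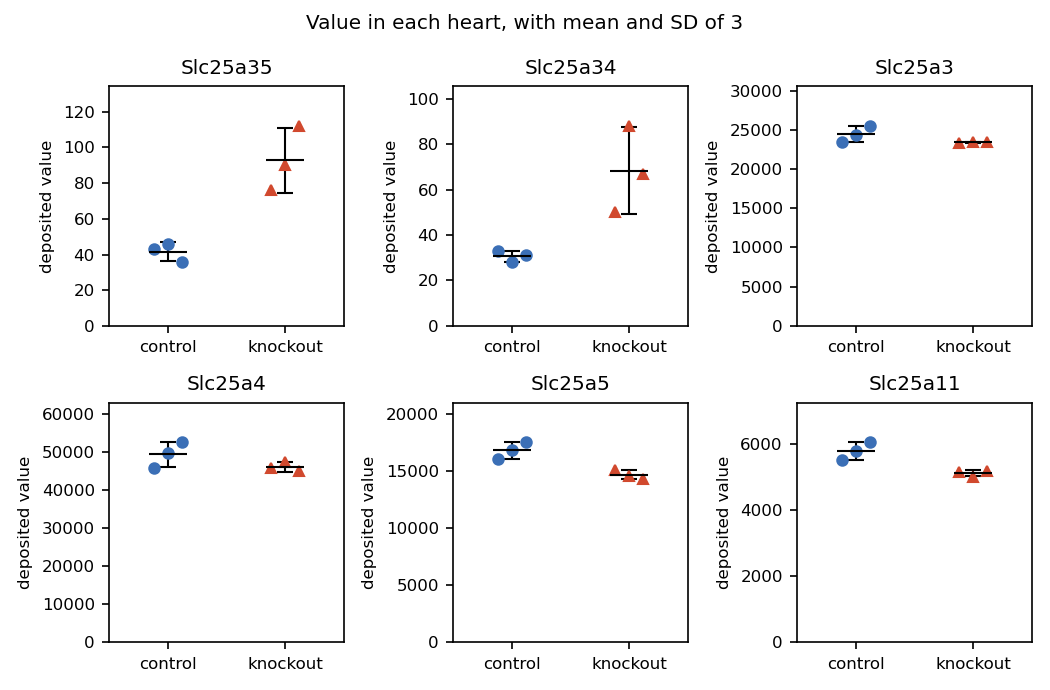
Deposited value (vertical axis, from 0) of 6 carrier genes in each heart, with circles for controls, triangles for knockouts, a bar for the mean and whiskers for the SD of 3. Slc25a35 and Slc25a34 do not overlap between the groups and differ by 2.22 and 2.23 times. Slc25a5 and Slc25a11, which are lower in the knockouts, do not overlap either, while Slc25a4 and Slc25a3 overlap.

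Of the carriers of cofactors, coenzymes and nucleotides, 7 are described here, and limma called none of these with all 6 hearts. Slc25a36, a carrier of pyrimidine nucleotides, was at 1765, 1591 and 1520 among control hearts, against 1870, 1800 and 1802 among knockout hearts, with no overlap and a log2 fold change of 0.17 (limma adjusted p = 0.137). Without control replicate 1 it was 0.23 (limma adjusted p = 0.0436). Over the 15 other settings the fold change of Slc25a36 was 0.12 to 0.23, with an adjusted p in limma of up to 0.333. Its relative Slc25a33 was at 93.0 ± 7.0 and 87.7 ± 3.22 (SD, n = 3 each). Slc25a42, a carrier of coenzyme A, was at 778, 761 and 926 against 712, 747 and 731, also without overlap, a difference of -0.17 (limma adjusted p = 0.233). Slc25a51, through which NAD enters mitochondria, was even across the hearts, at 2400 ± 46.6 and 2422 ± 78.0, and the 95% interval of its log2 difference was -0.12 to 0.15. Slc25a17, a carrier of the peroxisome membrane, had a mean of 687 ± 40.4 and 681 ± 24.1, Slc25a16, linked to coenzyme A, of 491 ± 26.9 and 516 ± 19.7, and Slc25a32, the folate and FAD carrier, of 139 ± 17.6 and 158 ± 13.3 (SD, n = 3 each). The 95% intervals of these 7 genes lay within a 1.5-fold change in either direction.

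Of 7 tested carriers of adenine nucleotides and phosphate, none passed adjusted p in limma. Slc25a4 was at 45966, 49841 and 52555 among control hearts, against 45874, 47510 and 44939 among knockout hearts, and the groups overlapped. Its log2 fold change was -0.10 (95% interval -0.27 to 0.08, limma adjusted p = 0.428), and 0.02 with quantile normalization. Slc25a3 was at 23480, 24383 and 25493 and at 23295, 23499 and 23422, a difference of -0.06 (95% interval -0.21 to 0.08), and the groups overlapped here too.

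Slc25a5 was at 16054, 16871 and 17492 among control hearts, against 15100, 14563 and 14315 among knockout hearts. All knockouts were lower, by -0.20 on the log2 scale (SE 0.06, 95% interval -0.34 to -0.05), and the adjusted p in limma was 0.0634. Without control replicate 1 the adjusted p in limma was 0.0483, and without knockout replicate 2 it was 0.201. Slc25a5 is X-linked. The ratio of Slc25a4 to Slc25a5 was 2.86, 2.95 and 3.0 among control hearts and 3.04, 3.26 and 3.14 among knockout hearts. Each knockout was above each control (exact two-sided permutation p = 0.1, the smallest that 3 against 3 can give).

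Slc25a23, Slc25a24 and Slc25a25 encode calcium-regulated carriers that exchange ATP-magnesium for phosphate. Slc25a23 was the highest of them, at 2746, 2885 and 2878 among control hearts, against 2289, 2419 and 2834 among knockout hearts. Knockout replicate 3 lay within the controls, and without it the log2 fold change went from -0.18 to -0.27 and the adjusted p in limma from 0.166 to 0.0399. Without knockout replicate 1 they were -0.12 and 0.405. Slc25a24 was at 790 ± 55.8 and 798 ± 7.55 and Slc25a25 at 333 ± 48 and 368 ± 20.3 (SD, n = 3 each). Slc25a31, the ADP/ATP carrier known from male germ cells, was low and uneven: it was at 59, 42 and 16 among control hearts, against 57, 17 and 43 among knockout hearts. Its lowest values were in the library of least estimated depth in each group, and the spread was 55.5% and 52.1% of the mean. The 95% interval of its difference, -1.11 to 1.15, is wide, and a smaller change could not be told from the spread between hearts.

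Carriers of carboxylates and acylcarnitine were lower in 3 of 4 estimates, and 0 of 4 passed adjusted p in limma. Slc25a11 was at 5497, 5785 and 6031 among control hearts, against 5135, 4998 and 5164 among knockout hearts. The groups did not overlap, with a log2 fold change of -0.18 (SE 0.06, 95% interval -0.31 to -0.04, limma adjusted p = 0.0735). Without control replicate 1 the adjusted p of Slc25a11 in limma was 0.0458, and without knockout replicate 2 it was 0.239. Its exons share 189 bases with Rnf167 on the other strand. Slc25a20, the carnitine/acylcarnitine carrier of fatty acid oxidation, was at 1338, 1449 and 1433 against 1287, 1244 and 1289. The knockouts again lay below the controls, by -0.14 (limma adjusted p = 0.165). Slc25a10, the dicarboxylate carrier, was at 484, 701 and 713 against 507, 564 and 592, with control replicate 1 as the lowest heart of all 6. Without that heart its log2 fold change went from -0.17 to -0.35 and the adjusted p in limma from 0.448 to 0.0330. Without control replicates 2 and 3 the fold change was -0.09 and -0.07, with adjusted p of 0.769 and 0.797 in limma. Slc25a1, the citrate carrier, was at 249 ± 28.3 and 277 ± 38 (SD, n = 3 each).

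Of 11 tested carriers of amino acids and related compounds, 0 passed adjusted p in limma, with estimates below 0 for 9. Slc25a12 and Slc25a13, the calcium-activated aspartate/glutamate carriers of the malate-aspartate shuttle, were close to level. Slc25a12 averaged 3372 ± 172 without Cre and 3259 ± 155 in the knockouts, and Slc25a13 at 1658 ± 74.8 and 1636 ± 25.5 (SD, n = 3 each). Their 95% intervals were -0.20 to 0.10 and -0.16 to 0.12 on the log2 scale. Slc25a39 was at 2951, 3490 and 3941 among control hearts, against 2771, 2823 and 3274 among knockout hearts, an overlap, with -0.22 (limma adjusted p = 0.183). Its relative Slc25a40 was at 488, 386 and 425 against 413, 333 and 347, with a similar difference of -0.25 (limma adjusted p = 0.178). Without control replicate 1 the adjusted p of Slc25a39 in limma was 0.0410 at -0.33, and without control replicate 3 it was 0.476 at -0.12.

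Slc25a44, a carrier of branched-chain amino acids, was at 639, 685 and 716 among control hearts, against 611, 565 and 599 among knockout hearts, and Slc25a26, which imports S-adenosylmethionine, at 284, 318 and 279 and at 263, 241 and 238. Neither overlapped between the groups. Their log2 fold changes were -0.20 and -0.25, and the adjusted p in limma was 0.112 and 0.127. Slc25a45, a less well characterised carrier, was the one member of the class with higher knockouts throughout. It was at 141, 128 and 139 against 166, 171 and 167, a log2 fold change of 0.30 (SE 0.11, 95% interval 0.05 to 0.56, limma adjusted p = 0.0951). Slc25a22, a glutamate carrier, was at 498 ± 88.1 and 545 ± 40.6, Slc25a15, the ornithine carrier, at 421 ± 35.6 and 390 ± 17.6, and Slc25a29, a carrier of basic amino acids, at 53.7 ± 5.03 and 46.7 ± 9.02 (SD, n = 3 each).

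Iron and haem carriers did not pass. Slc25a37, mitoferrin 1, which supplies iron for haem in red cell precursors, was at 1130, 1080 and 1027 among control hearts, against 972, 1049 and 941 among knockout hearts, a difference of -0.13 (95% interval -0.29 to 0.04). Slc25a28, mitoferrin 2, the form of other tissues, was at 428 ± 45.7 and 418 ± 33.1 (SD, n = 3 each). Slc25a38, a glycine carrier needed for haem synthesis, was at 335 ± 40.4 and 321 ± 4.04 (SD, n = 3 each). Of 14 red cell markers, 12 were in the table and 10 tested, and 0 passed adjusted p in limma. Their median log2 fold change was -0.42, with Hbb-y and Hba-x above 0, and their sum was lower in every knockout. The part of red cell content in these 3 carriers was not tested.

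The uncoupling-like carriers Slc25a14, Slc25a27 and Slc25a30 had estimates above 0 and none passed adjusted p in limma. Slc25a14 was at 54, 95 and 91 among control hearts, against 85, 84 and 116 among knockout hearts. Control replicate 1 was the low heart, and the groups overlapped. Slc25a27 was at 284 ± 33 and 307 ± 33.6, and Slc25a30 at 246 ± 16.9 and 250 ± 15.4 (SD, n = 3 each). Among the remaining members Slc25a46, an outer membrane protein of mitochondrial dynamics, was at 1912 ± 88.1 and 1815 ± 96.4 (SD, n = 3 each). Slc25a53 was at 80, 64 and 43 against 87, 88 and 72, a difference of 0.43 (95% interval -0.07 to 0.94, limma adjusted p = 0.219). Slc25a47 was at 78.0 ± 15.7 and 69.7 ± 10.1 and Slc25a43 at 27.3 ± 9.50 and 22.7 ± 6.81 (SD, n = 3 each).

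**Figure D3:**
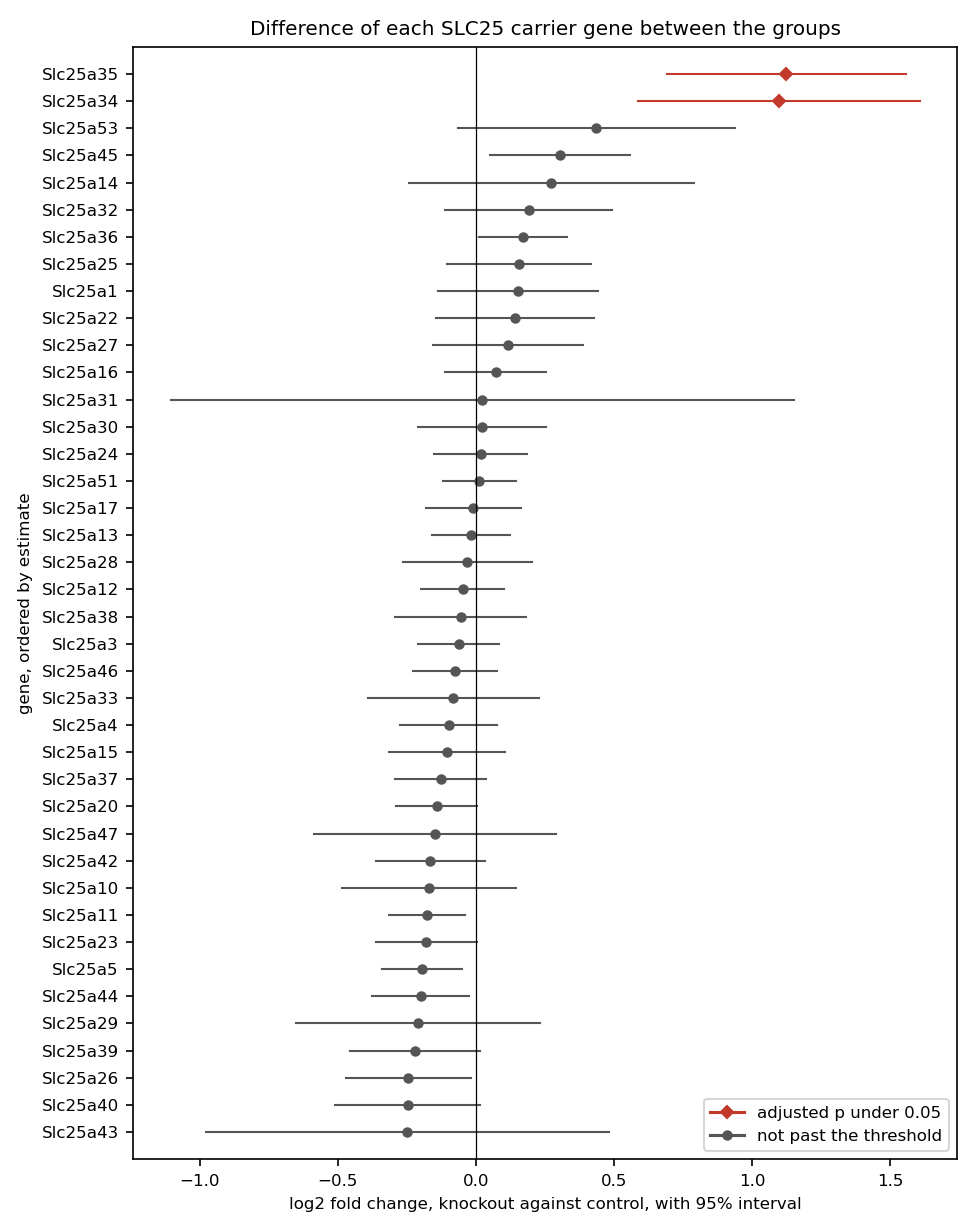
Log2 fold change of each of 40 carrier genes, knockout against control (horizontal axis), with its 95% interval from limma, ordered by estimate. Diamonds mark Slc25a35 at 1.12 and Slc25a34 at 1.10, which passed the threshold, and circles mark the other 38, which lie between -0.25 and 0.43.

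Over the 41 genes, estimates were above 0 for 16 and below 0 for 25, with a median log2 fold change of -0.06. The median over all 15556 genes was 0.00. The median absolute change was 0.15 for carriers and 0.18 for all genes, and the median standard error was 0.10 and 0.11. At an unadjusted p under 0.05 in limma there were 9 carriers, 22%, against 31.6% of all genes. The groups did not overlap for 11 carriers, 26.8%, of which 7 were lower and 4 higher, against 35.4% of all genes. Of the 38 carriers that did not pass, 32 had a 95% interval within a 1.5-fold change in either direction, including all 13 whose mean reached 1000. The interval of the other 6 was wider. Over all 15556 genes tested, past the threshold or not, 9764 had an interval within that range. With values scaled to equal totals the median was -0.03 for the carriers and 0.03 for all genes, and with quantile normalization it was -0.03 and -0.01.

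**Figure D4:**
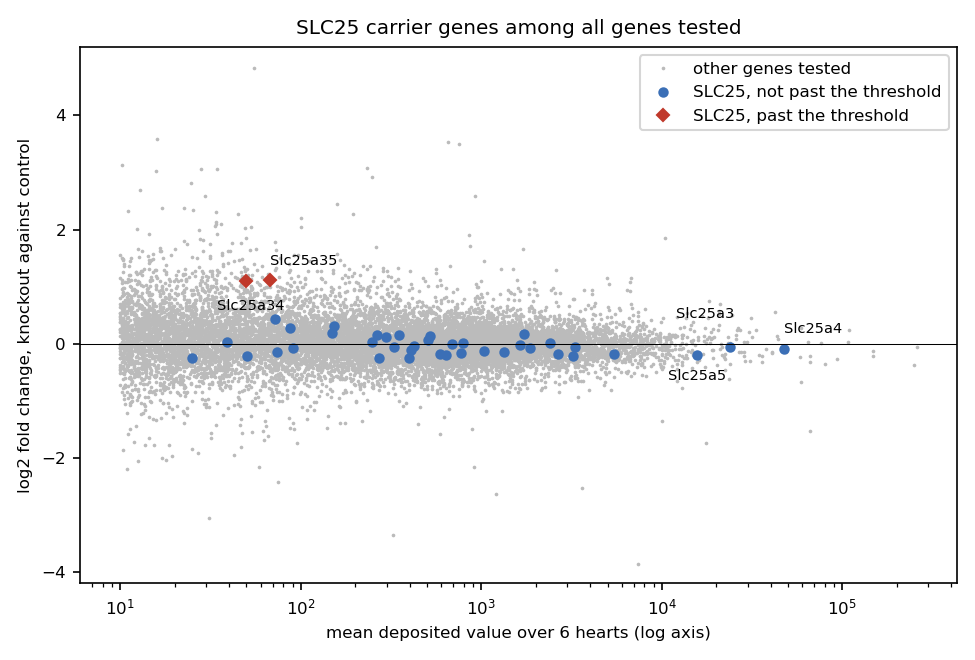
Log2 fold change, knockout against control (vertical axis), against the mean deposited value over 6 hearts (horizontal log axis) for all 15556 genes tested, with 40 carriers as circles (not past the threshold) or diamonds (past it). Slc25a34 and Slc25a35 are at 1.10 and 1.12, and the abundant carriers Slc25a3, Slc25a4 and Slc25a5 lie just below 0.

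The 6 members under a mean of 10 were Slc25a2, Slc25a18, Slc25a41, Slc25a21, Slc25a48 and Slc25a54, with means of 6.83, 5.0, 2.5, 1.33, 1.17 and 0.50. Slc25a43, with a mean of 25, was the lowest member above the limit. Slc25a2 and Slc25a18 encode alternative forms of the ornithine and glutamate carriers. The controls held Slc25a2 at 5.36 per kb beside Slc25a15 at 74.7. Slc25a48 was at 3, 0 and 4 among control hearts and at 0 in each knockout, which is at the limit of counting.

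Some carriers are neighbours in the genome. The GENCODE bounds of Slc25a29 and Slc25a47 lie 162 bases apart on opposite strands of chromosome 12, and the 95% intervals of both include 0. Slc25a43 and Slc25a5 lie 18448 bases apart on the same strand of the X chromosome. Slc25a24 and Slc25a23 lie next to the low genes Slc25a54 and Slc25a41, at gaps of 6461 and 2056 bases. Slc25a34 and Slc25a35, which rose alike, lie on chromosomes 4 and 11.

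Some proteins of the carrier family bear other names. Ucp2, uncoupling protein 2, was at 858, 976 and 1066 among control hearts, against 1152, 1346 and 1259 among knockout hearts, and rose by 0.38 in log2 fold change (SE 0.09, limma adjusted p = 0.0226). Mtch2, an outer membrane protein that inserts other proteins, was at 3411, 3309 and 3463 against 2933, 2857 and 2656, and changed by -0.27 (SE 0.06, limma adjusted p = 0.0165). Neither gene's groups overlapped. Ucp2 is also expressed in macrophages, whose 7 markers summed to 1470 to 1579 in the controls and 2019 to 2725 in the knockouts. The part of these cells in the Ucp2 difference was not tested. Mtch1 was at 4553 ± 389 and 4867 ± 361 (SD, n = 3 each), and Ucp1 and Ucp3 did not exceed 5 in any heart.

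The carriers reach the inner membrane through the receptor Tomm70a, the pore Tomm40 and the TIM22 insertase. Of 13 genes listed for this route, 12 were tested, 3 fell and 0 rose, with a median log2 fold change of -0.08. Tomm70a changed by -0.30 (SE 0.07, limma adjusted p = 0.0175), Agk, a subunit of the insertase, by -0.44 (SE 0.11, limma adjusted p = 0.0232) and Tomm40 by -0.43 (SE 0.11, limma adjusted p = 0.0247). Tomm70a was at 3579, 3511 and 3294 among control hearts, against 3033, 2769 and 2618 among knockout hearts, while Timm22, the channel of the insertase, had the same mean of 709 in both groups. The share lower, 3 of 12, stands beside 8.56% of all genes.

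Of 20 genes for other routes through the mitochondrial membranes, 1 rose and 2 fell, with a median of -0.12. These counts are near the 8.61% higher and 8.56% lower of all genes. Sfxn3, a sideroflexin, rose by 0.37 (SE 0.09, limma adjusted p = 0.0173). Letm1, an ion exchanger protein of the inner membrane, changed by -0.28 (SE 0.07, limma adjusted p = 0.0270) and Vdac3, a pore of the outer membrane, by -0.25 (SE 0.07, limma adjusted p = 0.0365). Mpc1 and Mpc2, which together import pyruvate, were at 837 ± 32.3 and 764 ± 1.15 and at 2014 ± 111 and 1758 ± 78.9 (SD, n = 3 each), and neither passed. Beside these, 14 of 45 genes taken by the complex I name Nduf, assembly factors included, fell. Of the mitochondrial ribosome, 24 of 76 tested genes fell. In both lists 0 rose, with medians of -0.17 and -0.18, beside 8.56% lower of all genes. For the 41 carriers these numbers were 1 lower and 2 higher, with a median of -0.06. The difference between the lists was not tested.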

How the data were processed

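Poly(A) RNA of 3 control and 3 knockout hearts was analysed. Groups and replicate numbers come from the titles. Nothing in the labels or titles says that hearts came from separate litters, so p-values set differences only against the spread between these samples. The submitters' processing notes name Trimmomatic, STAR 2.4.2a, featureCounts 1.5.0, DESeq, DESeq2 and build mm10. The deposited values are treated as a score: whole numbers that, judging from their steps, are read counts rescaled library by library and then rounded. All 37 mitochondrial DNA genes are listed at 0.

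The step between values up to 150 gave what 1 read is worth, 0.6922 to 1.4228 by sample, and total divided by step the estimated depth. Genes with a mean of at least 10 were tested with limma 3.58.1 in R 4.3.3, with a variance trend, on log2(value + 1), with the group alone in the design. Benjamini-Hochberg adjustment ran over all 15556 tested genes. The procedure was tested on simulated data. Coordinates and exon lengths are those of GENCODE M21, which holds 45143 of the table's identifiers. Figures were made with Python 3.11.15 and matplotlib 3.10.9.

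The family, the role classes and the lists of genes were chosen with earlier results of these data known. One tested member is counted but not reported here. The other 40 are named, with values per heart for those past the threshold, for the most abundant of each class and for others described in the text. Motifs, and the genes whose start regions are printed, were chosen after the values had been seen. Replicates of a group differed by more than counting noise in every pair.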

Additional observations from a re-analysis of the deposited data

How the results depend on the processing

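With 3 hearts a group, small differences of low carriers could not be told from the spread between hearts. Over 41 carriers and 15 alternatives, 576 values kept direction and call, and 30 carriers never changed sign. Slc25a34 and Slc25a35 passed in all 15. Slc25a31 and Slc25a43 were not tested under the filter of at least 50 in 3 samples. The cause of the changes below was not tested.

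The same-numbered hearts deviated with correlations of -0.041, -0.372 and 0.049, and differently numbered hearts with -0.254 to 0.266. With 3 hearts a group these values cannot settle if the numbers pair the samples. With a replicate block 5 carriers were called, 3 of them lower, with Slc25a11 and Slc25a39 newly past the threshold. Over all genes 3530 were called in that fit, 1743 of them lower. With embryo sex as a term 0 carriers were lower, while over all genes 2090 were called and 981 were lower. With no filter 1755 genes were called and 846 were higher. Leaving out 1 heart at a time gave 2 to 8 carriers called and 0 to 5 lower, and over all genes 1305 to 2370 called, 614 to 1237 higher and 691 to 1225 lower. The lowest counts over all genes came without knockout replicate 2, and without control replicate 3 there were 1669.

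The log2 fold change of 11 carriers changed sign under some setting. Equal totals moved the median of all genes from 0.0018 to 0.0324, and with it the fold change was 0.0123 for Slc25a13 and 0.0197 for Slc25a17. With quantile normalization the values were 0.0088 for Slc25a17, 0.0204 for Slc25a4 and -0.0649 for Slc25a31, and with embryo sex as a term 0.0156 for Slc25a17 and -0.2974 for Slc25a31. Leaving out 1 heart gave ranges of -0.0558 to 0.0061 for Slc25a13, -0.0113 to 0.2383 for Slc25a22, -0.0265 to 0.0753 for Slc25a30, -0.0397 to 0.0369 for Slc25a17 and -0.1582 to 0.0097 for Slc25a38. They were -0.5082 to 0.0115 for Slc25a43, -0.0204 to 0.0732 for Slc25a24, -0.1175 to 0.0362 for Slc25a28, -0.0105 to 0.036 for Slc25a51 and -0.5041 to 0.5185 for Slc25a31.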
